A study of Canis lupus familiaris with 25 samples.

Results

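A group of steroid hormone receptors was examined in canine perianal tumors, namely the estrogen receptors ESR1 and ESR2, the progesterone receptor PGR, the glucocorticoid receptor NR3C1 and the mineralocorticoid receptor NR3C2. The 5 genes were chosen by symbol, and all 5 were among the 24532 genes of the count table. Total RNA from 25 formalin-fixed, paraffin-embedded (FFPE) tumor samples had been used for QuantSeq 3′, a method in which reads come from the 3′ ends of transcripts. Hepatoid gland adenoma (HGA), a benign tumor of modified sebaceous glands around the anus, was sampled in 10 pet dogs aged 8 to 14 years, of which 5 were male and 5 female, 6 intact and 4 neutered. Apocrine gland anal sac adenocarcinoma (AGASAC), a malignant tumor of the anal sac glands, was sampled as the primary tumor in 11 dogs aged 8 to 12.5 years, of which 6 were male and 5 female, 2 intact and 9 neutered. The 4 metastases were taken from sublumbal lymph nodes of the dogs of AGASAC 1 to 4. No dog was experimentally treated, normal gland was not analysed here, and adjacent tissue had been trimmed away before RNA extraction.

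Steroid hormone receptors are transcription factors that are switched on by their ligand. Without hormone they are held by chaperones of the HSP90 machinery, and with it they bind DNA and recruit coactivators or corepressors. Estrogen acts through ESR1 in the uterus, the mammary gland and skin glands, and PGR is a textbook target gene of ESR1. Cortisol acts through NR3C1 in nearly every cell type. NR3C2 responds to aldosterone in sodium-transporting epithelia, where the enzyme HSD11B2 inactivates cortisol, which would otherwise occupy this receptor too.

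The libraries held 1562347 to 6389555 counts each. Levels are given as CPM, the counts relative to a library size that was scaled by TMM over all 25 samples, and 3 counts, the limit that a count of 0 allows, equaled 0.539 to 1.88 CPM. These floors cover counting error only. The tissue labels were compared with marker genes. Of 8 luminal epithelial markers 6 were lower in HGA than in AGASAC, and 5 of 6 tested squamous markers were higher. The summed sebaceous markers reached 3567 to 120342 CPM in HGA and 1597 to 4875 CPM in AGASAC. Of 6 tested sebaceous markers 2 were called as higher in HGA and 4 were not called. The sebaceous wax synthase AWAT1 had 0 counts in all 11 AGASAC. HGA 10 stood apart with the lowest sebaceous sum of its group, 3567 CPM, inside the AGASAC range, while its squamous sum of 5226 CPM was far above the highest AGASAC value of 217 CPM. Of 9 fibroblast markers 0 were called, with sums of 1298 to 5889 CPM in HGA and 1037 to 7995 CPM in AGASAC. The summed endothelial markers were 199 to 571 CPM in HGA and 52.5 to 228 CPM in AGASAC, with 2 of 5 tested markers higher in HGA. Over all tested genes 12.6% were called as higher in HGA and 12.5% as lower. The part of these tissue differences in the receptor values was not tested.

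ESR1 was the receptor whose levels separated the tumor types without overlap. It was 15.7-fold higher in HGA than in AGASAC, and no AGASAC or metastasis reached the level of any HGA. Its lowest, median and highest values were 86.4, 181 and 253 CPM in HGA, and 0.288, 3.88 and 27.8 CPM in AGASAC. The mean of HGA was 179 ± 54.6 CPM (SD, n = 10), and that of AGASAC was 11.3 ± 10.7 CPM (SD, n = 11). The log2 fold change (log2FC) of HGA against AGASAC was 3.98 (SE 0.52, 95% interval 2.90 to 5.05), with an adjusted p of 1.18e-05. Unless another test is named, an adjusted p comes from the quasi-likelihood test of edgeR, adjusted by Benjamini-Yekutieli over all tested genes. Genes were called where it was 0.05 or less and the log2FC reached 1 in either direction. Of the 5 receptors 3 passed the filter on low counts and 2 of these were called, both higher in HGA, in a comparison where 25.1% of 12070 tested genes were called and 12.6% were called as higher in HGA. Among all tested genes 4.63% were higher in HGA with groups that did not overlap, and ESR1 was among these. In bulk tissue, fewer cells of a type and less RNA per cell cannot be told apart.

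**Figure D1:**
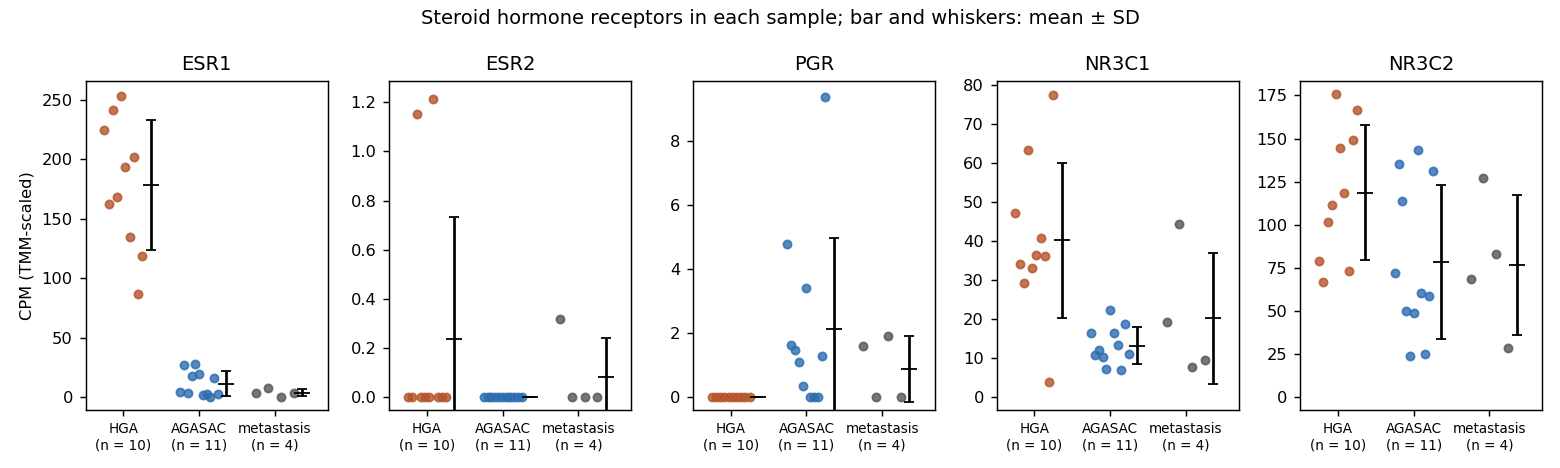
CPM (TMM-scaled, linear axes that differ between panels) of the 5 receptors in each of 10 HGA, 11 primary AGASAC and 4 metastases, with 1 point per sample and the mean ± SD beside each group. ESR1 in HGA starts at 86.4 CPM, above the highest AGASAC at 27.8 CPM, while PGR is at 0 in all 10 HGA.

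The ESR1 difference was also present when fewer dogs were compared. In neutered dogs alone, 4 with HGA and 9 with AGASAC, the log2FC was 3.96 with an adjusted p of 0.00951 by edgeR. RNA had been extracted in batches, of which 3 held at least 2 tumors of each type. The log2FC was 6.32 in batch 5 (3 HGA and 3 AGASAC, adjusted p 0.0273 by edgeR), 3.50 in batch 6 (3 and 2, adjusted p 0.00964 by edgeR) and 3.07 in batch 8 (2 and 3, adjusted p 0.357 by edgeR). Batch 7 held 1 tumor of each type, with ESR1 at 242 CPM in the HGA and 2.99 CPM in the AGASAC. Batches 4 and 9 held primary tumors of 1 type only. ESR1 in HGA was thus higher in each batch that had both tumor types, though the difference in batch 8 did not pass the test.

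Within AGASAC the ESR1 values left a wide gap. In 6 tumors ESR1 lay at 0.288 to 3.88 CPM, in the other 5 at 16.1 to 27.8 CPM, and no value fell between. The lower values belonged to AGASAC 1, 3, 7, 8, 9 and 11 and the higher ones to AGASAC 2, 4, 5, 6 and 10. The values followed the extraction batch in part, since the 3 AGASAC of batch 5 lay at 0.288 to 3.81 CPM and the 2 of batch 6 at 18.0 to 19.8 CPM, while batches 4 and 8 held both low and high tumors. The part of the batch in this spread was not tested. AGASAC 9 had a count of 1 and AGASAC 7 a count of 4, so the order of the lowest tumors was not resolved at this depth.

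The second estrogen receptor, ESR2, was barely detected in any tumor. It had 4 counts in HGA 7 and 2 counts in HGA 3, which were intact dogs, 1 count in metastasis 1, and 0 counts in the other 22 samples, all 11 AGASAC included. These values lie at or near the floor, so no difference in ESR2 between tumor types was detectable at this depth.

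PGR showed the opposite distribution to ESR1. It had 0 counts in all 10 HGA, the tumors with high ESR1, and 84 counts in total in AGASAC, spread over 8 of 11 tumors. AGASAC 11 held 39 of these counts (9.35 CPM), AGASAC 1 held 16 (4.78 CPM) and AGASAC 6 held 10 (3.42 CPM). AGASAC 2 and 3 had 5 counts each, AGASAC 4 and 10 had 4 each, AGASAC 5 had 1, and AGASAC 7, 8 and 9 had 0. The groups overlapped at 0, and most of the AGASAC values were a few counts. Summed over the groups, PGR was at least 21.8-fold lower in HGA than in AGASAC, with the HGA group set at the floor of 3 counts in all, and at least 13.2-fold lower without AGASAC 11.

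PGR was removed by the filter on low counts, so the comparison across all genes holds no value for it. A permutation test on log2(CPM + 1), chosen after PGR was seen to miss the filter, gave a mean difference of -1.22 between HGA and AGASAC (two-sided p = 0.00146, unadjusted, 100000 resamples). Without the filter edgeR gave an adjusted p of 0.0183, and DESeq2 gave 0.00594. In the metastases PGR had 5 counts in metastasis 1, 6 in metastasis 3 and 0 in the other two, and the difference from HGA did not pass an exact permutation test (two-sided p = 0.132). In the AGASAC with the most PGR, tumors 11, 1 and 6, ESR1 was 2.88, 3.88 and 19.8 CPM, so these lay on both sides of the gap in ESR1.

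NR3C1, the glucocorticoid receptor, was 3.04-fold higher in HGA than in AGASAC. Its lowest, median and highest values were 3.93, 36.3 and 77.3 CPM in HGA and 6.91, 12.0 and 22.2 CPM in AGASAC. The log2FC was 1.60 (SE 0.31, 95% interval 0.96 to 2.25, adjusted p 0.00184 by edgeR). In 9 of 10 HGA the value, 29.3 CPM or more, lay above every AGASAC. The exception was HGA 9, whose 9 counts (3.93 CPM) were below every AGASAC, although its ESR1 was 86.4 CPM, its NR3C2 149 CPM and its share of RNA fragments over 200 nucleotides 92.7%, the highest of all HGA. Without HGA 9 and HGA 10 the log2FC was also 1.60 (SE 0.22), with an adjusted p of 4.39e-05 by edgeR. This fit was added after the values were seen. It leaves out the lowest and the highest HGA, which narrows the spread, so its smaller p adds no support.

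The NR3C1 difference kept its direction in smaller sets of tumors but passed the test in only some of them. In neutered dogs the log2FC was 1.86 (adjusted p 0.00572 by edgeR). It was 1.52, 1.25 and 1.76 in extraction batches 5, 6 and 8, with adjusted p of 1, 0.876 and 0.362 by edgeR. With the batch as a covariate it was 1.46 (adjusted p 0.0286 by edgeR).

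NR3C2, the mineralocorticoid receptor, had the smallest log2FC between the tumor types among the 3 tested receptors. Its lowest, median and highest values were 66.9, 115 and 176 CPM in HGA and 23.7, 60.2 and 143 CPM in AGASAC, so the groups overlapped widely. The log2FC of 0.60 (SE 0.29, 95% interval -0.01 to 1.21) did not pass the test (adjusted p 0.966 by edgeR), and the interval leaves room for a difference of a little more than 1 on the log2 scale. AGASAC varied more among themselves, as 7 tumors lay at 23.7 to 71.7 CPM and 4 at 114 to 143 CPM.

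The balance of the cortisol-binding receptors was read as the ratio of NR3C2 to NR3C1 counts within each tumor, with a small constant added to both counts. In HGA its mean log2 value was 1.75 ± 1.32 (SD, n = 10), and in AGASAC 2.40 ± 0.85 (SD, n = 11). The difference of -0.64 was smaller than the spread between tumors (permutation test, two-sided p = 0.199, 100000 resamples). This rested on HGA 9, which had the highest ratio of all, 36.1, against at most 12.5 in AGASAC. Without it the HGA mean was 1.37 ± 0.58 (SD, n = 9) and the difference was -1.02 (exact permutation test, two-sided p = 0.00676, unadjusted). This test was added after the values were seen, and leaving out any other tumor gave -0.77 to -0.52.

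**Figure D2:**
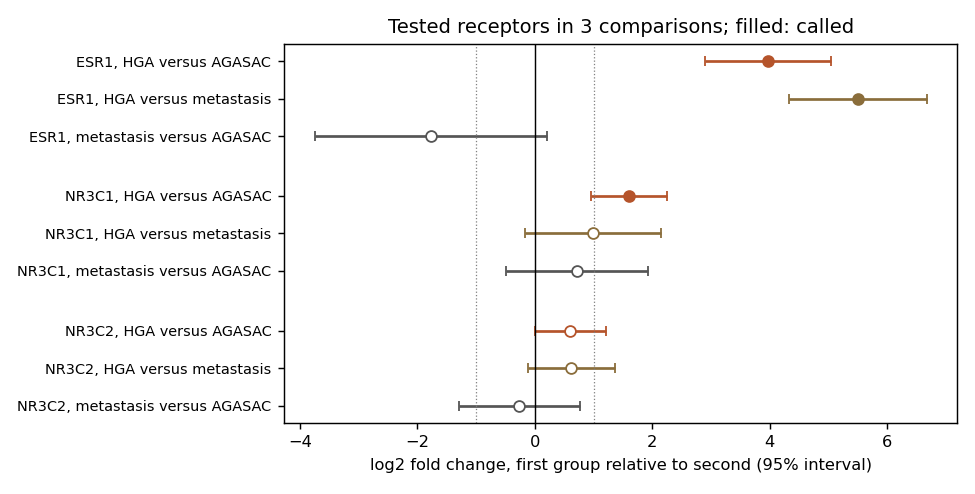
Log2FC of the 3 tested receptors in 3 comparisons, with 95% intervals that are not adjusted for the number of genes, a solid line at 0, dotted lines at -1 and 1, and filled points for called genes. ESR1 was called against AGASAC (3.98) and against metastases (5.50), NR3C1 only against AGASAC (1.60), and NR3C2 in none of the 3. The fit of metastasis against AGASAC shown here did not include the dog as a block.

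Against the metastases, HGA again differed in ESR1. The 4 metastases had 3.83, 7.91, 0.317 and 3.17 CPM (metastasis 1 to 4), all below the lowest HGA, and the log2FC of HGA against metastasis was 5.50 (SE 0.55, 95% interval 4.33 to 6.68, adjusted p 1.91e-05 by edgeR). ESR1 was the only receptor called among the 3 tested, in a comparison where 16.1% of 13195 tested genes were called and 7.76% were higher in HGA with no overlap. NR3C1 had 19.1, 44.3, 7.62 and 9.51 CPM in metastasis 1 to 4 and a log2FC of 0.99 (95% interval -0.18 to 2.15, adjusted p 1 by edgeR). Without metastasis 2 it was 1.73, above the fold threshold of 1, but it did not pass the test (adjusted p 0.407 by edgeR). All 4 lay inside the HGA range, 3 of them between the lowest and the next lowest HGA. NR3C2 had 68.3, 127, 82.9 and 28.5 CPM and a log2FC of 0.62 (95% interval -0.12 to 1.36, adjusted p 1 by edgeR). The comparisons of HGA with AGASAC and with metastases share the HGA samples.

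Each metastasis was then set beside the primary tumor of the same dog. ESR1 was lower in the metastasis in 4 of 4 dogs, from 3.88 to 3.83 CPM in dog 1, from 27.3 to 7.91 CPM in dog 2, from 3.81 to 0.317 CPM in dog 3 and from 18.0 to 3.17 CPM in dog 4. In dog 1 these were 13 and 12 counts, a difference within counting error. The log2FC of metastasis against primary tumor was -1.77 (SE 0.88, 95% interval -3.75 to 0.21) and did not pass the test (adjusted p 1 by edgeR). With the dog as a block it was -1.74 with a smaller SE of 0.53, again with an adjusted p of 1 by edgeR. In this comparison 0% of 12629 tested genes were called by edgeR, 145 had an unadjusted p under 0.05, and DESeq2 called 5.

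NR3C2 was also lower in each metastasis than in its primary tumor, by little in dogs 1 and 2. It went from 71.7 to 68.3 CPM, from 136 to 127 CPM, from 114 to 82.9 CPM and from 49.8 to 28.5 CPM in dogs 1 to 4. The log2FC of NR3C2 without the dog as a block was -0.26 (95% interval -1.30 to 0.77, adjusted p 1 by edgeR). With the block it was -0.34 (SE 0.18), again not called. NR3C1 was higher in 2 metastases and lower in 2. Its only large step was in dog 2, from 10.7 to 44.3 CPM, where the summed fibroblast markers went from 6896 to 13015 CPM, the highest sum of all 25 samples. The part of this tissue difference was not tested. The log2FC of NR3C1 was 0.72 (95% interval -0.49 to 1.93, adjusted p 1 by edgeR) and -0.04 without metastasis 2. With the dog as a block NR3C1 was at 0.40 (SE 0.45), again not called. PGR was lower in the metastasis in 3 of 4 dogs, on at most 16 counts.

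**Figure D3:**
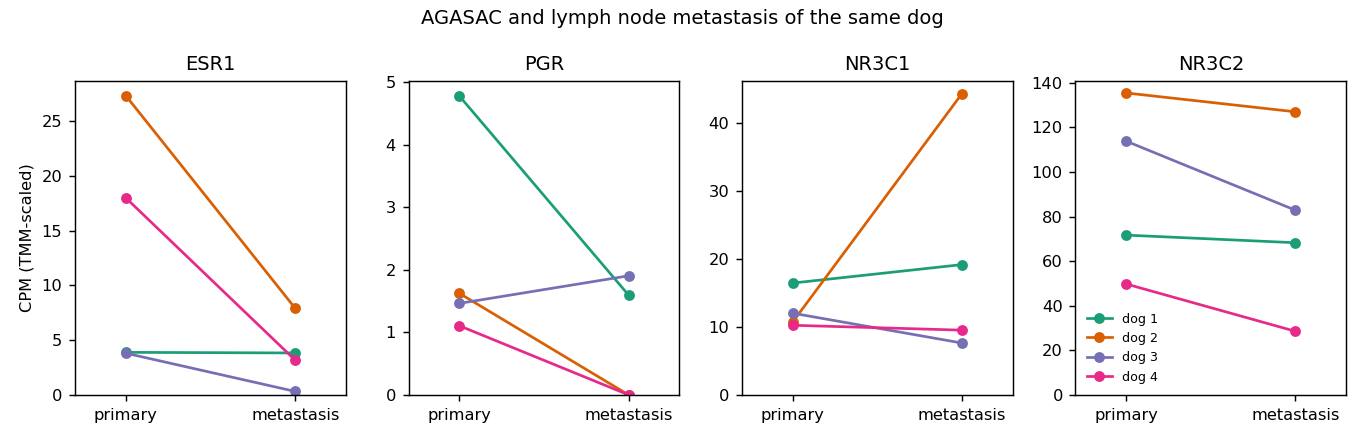
CPM (TMM-scaled, linear axes from 0 that differ between panels) of ESR1, PGR, NR3C1 and NR3C2 in the primary AGASAC and the metastasis of 4 dogs, with 1 line per dog. ESR1 and NR3C2 go down in 4 of 4 dogs, and NR3C1 rises steeply only in dog 2, from 10.7 to 44.3 CPM.

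Steroid receptors respond to gonadal hormones in several tissues, and HGA is known as a hormone-dependent tumor, so the receptors were compared by the sex and gonadal status of the dogs. In HGA, ESR1 was 162 to 253 CPM in 5 females and 86.4 to 193 CPM in 5 males, with means of 217 and 140 CPM. The log2FC of males against females was -0.61 (SE 0.25, 95% interval -1.14 to -0.07) and did not pass the test (adjusted p 1 by edgeR). The ranges overlapped, with 3 of 5 males below the lowest female. In this comparison 0.0176% of 11392 tested genes were called, none of them a receptor.

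ESR1 in HGA was nearly level between intact and neutered dogs, at means of 180 ± 63.7 CPM (SD, n = 6) and 177 ± 46.6 CPM (SD, n = 4). The log2FC of intact against neutered dogs was 0.01 (95% interval -0.65 to 0.67), which leaves a difference of up to about 0.67 on the log2 scale unresolved. With sex as a covariate it was 0.30 (SE 0.27, adjusted p 1 by edgeR). NR3C1 gave -0.51 (95% interval -1.61 to 0.58) and NR3C2 0.45 (95% interval -0.20 to 1.11). Without HGA 10 these were -0.18 and 0.87, both with an adjusted p of 1 by edgeR. Here 0% of 11906 tested genes were called by edgeR, with 1167 at an unadjusted p under 0.05. Sex and gonadal status were unevenly combined, as 4 of 5 males were intact and 3 of 5 females neutered.

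In AGASAC, NR3C2 was the receptor that differed most by sex. Males against females gave a log2FC of 0.99 (SE 0.42, 95% interval 0.09 to 1.89), which did not pass the test (adjusted p 1 by edgeR), and the 4 highest tumors, at 114 to 143 CPM, were all from males. In HGA the same contrast gave 0.51 (95% interval -0.11 to 1.12). The contrast for ESR1 in AGASAC was -0.77 (95% interval -2.70 to 1.16). All 6 males with AGASAC were neutered and the 2 intact dogs were female. Of the tested genes 0.00784% were called between the sexes and 0.00686% between intact and neutered dogs, again with no receptor among them. The latter comparison was the only one in which PGR passed the filter, with a log2FC of -2.06 for 2 intact against 9 neutered dogs (SE 1.78, 95% interval -5.91 to 1.80, adjusted p 1 by edgeR). It was -6.03 without AGASAC 4 and -1.14 without AGASAC 8, the 2 intact dogs, so it rested on a few counts.

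**Figure D4:**
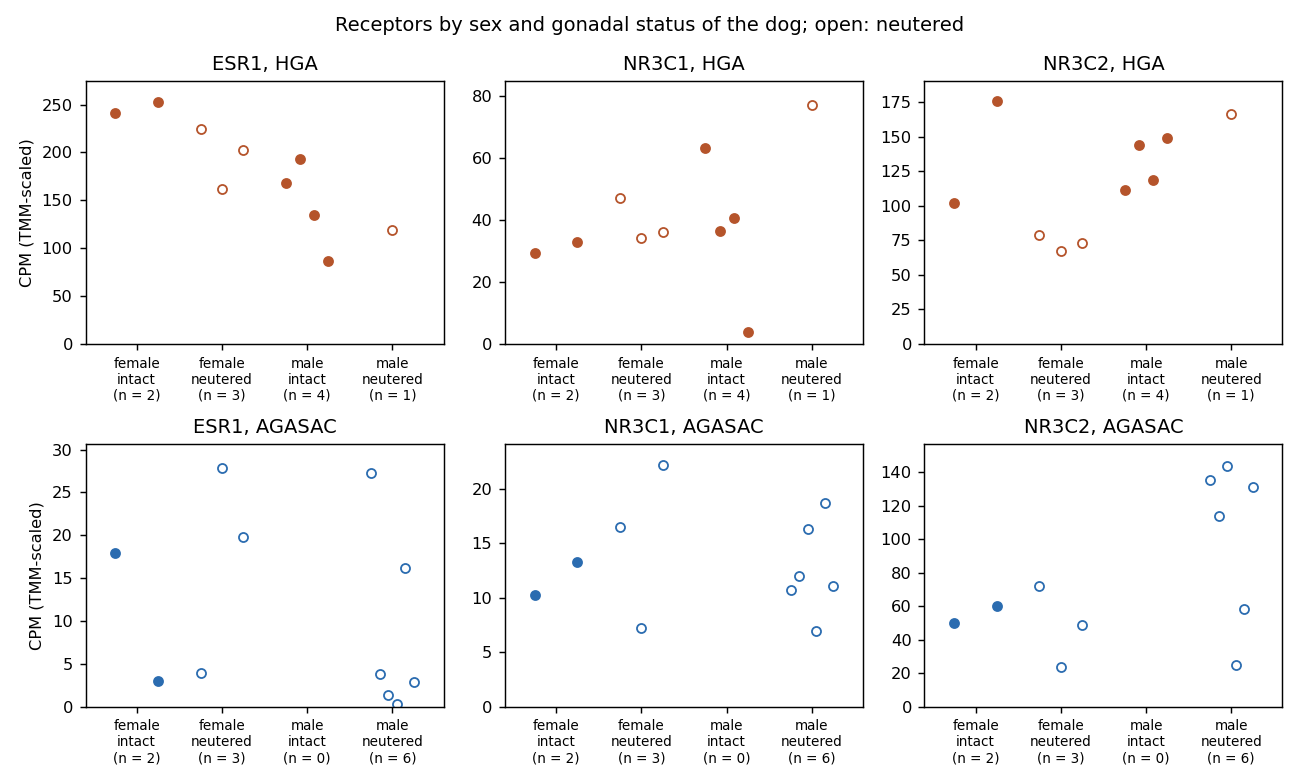
CPM (TMM-scaled, linear axes from 0 that differ between panels) of ESR1, NR3C1 and NR3C2 by sex and gonadal status in 10 HGA (top) and 11 primary AGASAC (bottom), with 1 point per tumor and open points for neutered dogs. ESR1 in HGA is 162 to 253 CPM in females and 86.4 to 193 CPM in males, and the 4 highest NR3C2 values in AGASAC are from males.

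The orphan receptors related to the estrogen receptors were read beside these 5. ESRRA, an orphan receptor linked to mitochondrial genes, had a log2FC of 0.80 (adjusted p 0.0345 by edgeR), under the fold threshold. ESRRG, a related orphan receptor, had means of 17.9 CPM in HGA and 1.62 CPM in AGASAC, and ESRRB had 0 counts in HGA and a mean of 0.93 CPM in AGASAC. Both missed the filter on low counts.

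Receptors for steroids outside the nuclear family changed in both directions. Of the 7 tested of 8 membrane steroid receptors 3 were higher and 3 lower in HGA, with a median log2FC of 0.66 against -0.03 over all tested genes. Of all tested genes 12.6% were called as higher and 12.5% as lower in HGA. PGRMC1, a membrane-associated progesterone-binding protein, was 98.7 to 1016 CPM in HGA and 34.0 to 84.5 CPM in AGASAC (log2FC 3.38), with no overlap. PAQR7, a membrane progestin receptor, was also higher (log2FC 2.47). The progestin receptor relatives PAQR9 (log2FC -4.13) and PAQR8 (log2FC -3.29) were lower, with overlapping groups.

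Most chaperones and coactivators of the receptors were not called. Of 12 chaperones and cochaperones 1 was higher and 1 lower, FKBP4 (log2FC 1.50), a cochaperone of steroid receptors, and HSP90AA1 (log2FC -1.16), the inducible HSP90. Of 10 tested of 13 coactivators 1 was higher and 1 lower. These were PPARGC1B (log2FC 2.13), a coactivator of nuclear receptors in energy metabolism, and NCOA1 (log2FC -1.46), a p160 coactivator. Among the corepressors NRIP1 (log2FC 2.06), which represses ligand-bound receptors and is itself induced by estrogen, was higher. The medians of the chaperone and coactivator lists were 0.07 and -0.12 against -0.03 over all tested genes, of which 25.1% were called.

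A list of transcription factors linked to ESR1 in breast epithelium had a call in every tested gene. All 6 tested of 7 were called, 2 higher and 4 lower in HGA, with a median log2FC of -3.02. Over all tested genes 25.1% were called. TFAP2C, an AP-2 factor, was 173 to 634 CPM in HGA and 0 to 93.5 CPM in AGASAC (log2FC 3.29), and its relative TFAP2A followed with 1.28. SPDEF, an ETS factor of luminal secretory cells, had a count of 1 over all 10 HGA and 56.1 to 282 CPM in AGASAC. MYB, an estrogen-responsive factor in breast tumors, had means of 0.41 and 77.3 CPM (log2FC -7.44).

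Known estrogen target genes were called in both directions. Of 10 tested of 18 genes 1 was higher and 3 lower, with a median log2FC of -0.43. The shares over all tested genes were 12.6% higher and 12.5% lower. IGFBP4, a binding protein of insulin-like growth factors, was 262 to 620 CPM in HGA and 36.2 to 81.6 CPM in AGASAC (log2FC 2.95). KRT18 (log2FC -6.88), a keratin that is also a luminal marker, and AGR2 (log2FC -5.72), a disulfide isomerase of secretory cells, were lower. The filter had removed GREB1, a coregulator of ESR1, which was 0 to 162 CPM in HGA with a median of 34.0 CPM and at most 0.344 CPM in AGASAC. It had also removed CA12, a carbonic anhydrase, at 0 to 160 CPM in HGA with a median of 13.3 CPM and at most 2.63 CPM in AGASAC. Both ranges overlapped at low values, neither gene was tested, and both were named after their values were seen. CCND1 and STC2 of the same list went the other way. Their medians were 45.6 and 1.46 CPM in HGA and 501 and 8.34 CPM in AGASAC. These 2 genes were also named after their values were seen. Of 5 tested of 10 progesterone target genes 1 was higher and 1 lower, STAT5A (log2FC 2.17), a transcription factor of the prolactin pathway, and HSD11B2 (log2FC -2.18).

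Glucocorticoid target genes were called in both directions. Of 15 tested of 20 genes 7 were higher and 4 lower in HGA, with a median log2FC of 0.49. Beside these stand 12.6% higher and 12.5% lower over all tested genes. KLF15, a factor of amino acid and glucose metabolism, was 26.6 to 116 CPM in HGA and 0 to 6.45 CPM in AGASAC (log2FC 4.61), and ZBTB16, a transcriptional repressor, was 187 to 807 CPM and 0.878 to 150 CPM (log2FC 4.19). MT2A, a metallothionein (log2FC -3.42), and GLUL, the glutamine synthetase (log2FC -3.24), were lower.

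Genes of the mineralocorticoid receptor axis, by contrast, were called in 1 direction. Of 9 tested of 13 genes 0 were higher and 5 lower in HGA, with a median log2FC of -2.18 against -0.03 over all tested genes, of which 12.5% were lower. The epithelial sodium channel subunit SCNN1G had 6 counts over 2 of 10 HGA and 0.585 to 351 CPM in AGASAC (log2FC -8.02), and SCNN1B had a log2FC of -4.06. HSD11B2, listed as a progesterone target too, had means of 15.1 and 69.1 CPM. The kinase gene SGK1, among the 5, also stands in the glucocorticoid list, so the lists are not independent. The receptor itself, NR3C2, was not called. In metastasis against primary tumor 0 genes of any of these lists were called by edgeR.

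**Figure D5:**
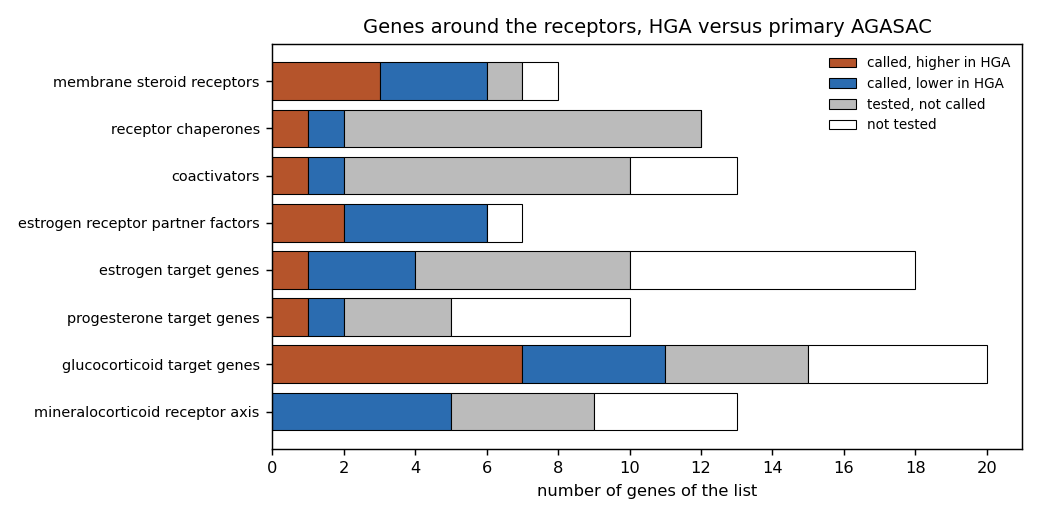
Number of genes (linear axis) in each of 8 lists around the steroid receptors that were called higher in HGA, called lower in HGA, tested without a call, or not tested, in HGA against primary AGASAC. The mineralocorticoid receptor axis has 5 lower and 0 higher genes, while the glucocorticoid target genes have 7 higher and 4 lower.

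For each tested receptor, the genes were sought whose log2 CPM deviated most like it from the tumor type means over the 21 primary tumors. For ESR1 these were STK26, a kinase (r = 0.74), FAM76A (r = 0.74) and BCHE, the butyrylcholinesterase (r = 0.73), and r was 0.61 to 0.62 without AGASAC 9. The likeness of STK26 and BCHE lay mostly in AGASAC, with r of 0.78 and 0.82 there and 0.27 and -0.16 in HGA, while FAM76A had 0.77 and 0.67. For NR3C1 and NR3C2 the genes named next had r of 0.42 to 0.92 in AGASAC and 0.63 to 0.97 in HGA. For NR3C1 they were RAD1, a DNA damage checkpoint gene (r = 0.93), ACTR3B, an actin-related gene (r = 0.88), and ZNF579 (r = 0.87), which fell to 0.81, 0.54 and 0.62 without HGA 9. For NR3C2 they were TARBP2, a partner of Dicer (r = 0.84), CLDN12, a claudin (r = 0.75), and BMS1, a ribosome assembly gene (r = 0.75), at 0.82, 0.67 and 0.80 without AGASAC 5. All points share the libraries, their depth and their TMM factors, and the genes were selected as the highest over all tested genes with a symbol, so the values are a description. Among themselves the 3 receptors had r of -0.30 to 0.45 over 10 HGA and -0.14 to 0.40 over 11 AGASAC. These pairs were not selected for a high r, so they cannot be compared with the genes above.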

How the data were processed

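The authors trimmed reads with Cutadapt, aligned them to CanFam3.1 with STAR and deposited whole counts per gene from featureCounts, counted again with 3′ ends extended by 2 kb; multi-mapped reads were distributed over their locations. Versions are not given in the sources used here. The deposited table also holds a signal (counts divided by size factors), log2 fold changes and p-values of the authors' own comparison, none of which was used. Counts were tested with edgeR 4.0.16 in R 4.3.3 (filterByExpr with minimum count 10 and minimum total 15, TMM, quasi-likelihood test, Benjamini-Yekutieli adjustment over all tested genes). DESeq2 1.42.0, permutation tests in SciPy 1.17.1, other scalings, filters, covariates and subsets were alternatives. Extraction batches came from the study's supplement.

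The 4 metastases were tested against the 4 primary AGASAC from the same animals, without the dog as a block in the main fit. The paired deviations from group means correlated at r = 0.42 to 0.70 in 4 of 4 pairs. The receptors and lists were chosen with earlier results of these data known. The genes named are the receptors, the related orphan receptors, up to 2 largest rises and falls per list, and the 3 nearest genes per receptor. SGK1, GREB1, CA12, CCND1 and STC2 were named after their values were seen. Some genes of these lists are not reported here. On simulated counts 200 genes were changed by a log2FC of 2. Of those that passed the filter, edgeR called 125 of 126 in HGA against AGASAC and 44 of 167 in metastasis against primary tumor. Every simulated gene had the same variability between samples, so these shares need not hold for the genes of these tumors. Duplicate libraries were not found, and 0 columns of samples were left unused. Samples are single tumors, so p-values set a group difference against the spread between tumors. In metastasis against primary tumor the main fit treated samples of the same dog as independent. No coordinates or sequences are given, because the reference provided belongs to a different assembly.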

Additional observations from a re-analysis of the deposited data

Results flagged for a closer look

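The receptors were searched for a sample far from its group in HGA and in the metastases (AGASAC, with 11 tumors, was too large for the rule used). By Dixon's test on linear CPM, 0 of 8 groups of values held such a sample. HGA 9, with the lowest NR3C1 at 3.93 CPM, was not flagged. On this scale the highest HGA, at 77.3 CPM, widens the range, so the rule cannot decide on a low value such as this.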

How the results depend on the processing

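Under 17 alternatives ESR1 stayed higher in HGA than in AGASAC, at a log2FC of 3.07 to 6.32, and lost its call only within extraction batch 8. NR3C1 stayed higher at 1.25 to 1.86 and lost its call within batches 5, 6 and 8 and among samples whose file names followed 1 naming pattern (9 HGA and 3 AGASAC, 1.45, edgeR's adjusted p 0.466). Of the receptors, 1 was called in batch 5, 1 in batch 6, 0 in batch 8 and 1 in that naming pattern, and 3 without the filter, where PGR joined. All genes called in HGA against AGASAC numbered 1738 in neutered dogs and 262, 637 and 338 in batches 5, 6 and 8, where fewer tumors were compared. Leaving out each sample in turn gave 2828 to 3373 genes, 2 receptors in every fit, ESR1 at 3.84 to 4.204, NR3C1 at 1.45 to 1.74 and NR3C2 at 0.50 to 0.73. Scaling by library size alone moved the median of all genes from -0.03 to -0.33 and the share of calls higher in HGA from 50.2% to 32.8%, with ESR1 at 3.67 and NR3C1 at 1.33, both called. In HGA against metastasis, Benjamini-Hochberg gave 3536 genes, library size alone a share of 36.3% higher in place of 52.2%, and leaving out a sample 1543 to 2588 genes with ESR1 at 5.13 to 6.16, NR3C1 at 0.72 to 1.73 and NR3C2 at 0.35 to 0.98.

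In metastasis against primary tumor, DESeq2 called 5 genes and the fit with the dog as a replicate block 1, none of them a receptor, and the block changed no call of a receptor. Leaving out a sample gave ESR1 at -2.44 to -1.14, NR3C1 at -0.040 (without metastasis 2) to 0.99 and NR3C2 at -0.64 to 0.0071 (without metastasis 4). The equal numbers of HGA and AGASAC mark different dogs (r of -0.06 to 0.03, 0 of 10 best with its own number), and a replicate block on them gave 2543 genes, ESR1 at 4.45 and NR3C1 at 1.44, both called. By sex in HGA, gonadal status as a covariate gave 1 gene and leaving out a tumor 1 to 2. By gonadal status in HGA, leaving out a tumor gave 0 to 1 genes, ESR1 at -0.13 to 0.15 and NR3C2 at 0.32 to 0.87. In AGASAC, leaving out a tumor, added after the data were seen like the fit without HGA 9 and HGA 10, gave 1 to 4 genes and NR3C1 at -0.30 to 0.10 by sex, and 0 to 2 genes, ESR1 at -1.92 to 0.66 and PGR at -6.03 to -1.14 by gonadal status. The cause of these shifts was not tested. Depth limited ESR2 and PGR, whose counts lay near the floor.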
